A study of Mus musculus with 6 samples.

Results

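Vitamin A is handled in fat cells by a short chain of carriers, enzymes and receptors, and 9 genes of that chain are described here in induced brown adipocytes from U-IRX3ov and control mice. They are Rbp4, Rbp7, Stra6, Retsat, Rdh10, Dhrs3, Aldh1a1, Aldh1a3 and Rarg, found by their gene symbols among the 46095 rows of the deposited count table. All 9 had a row, and 8 of them passed the filter on low counts, the exception being Stra6. They were proposed as a group with their U-IRX3ov and control values in view, so their differences are given below as descriptions and carry no test. Tests are given for 43 other genes of the retinoid pathway, a list that was also made with earlier results of these data known.

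Retinol leaves the liver bound to the carrier Rbp4, enters some cells through Stra6, and is held inside cells by small binding proteins. Retinol dehydrogenases turn it into retinaldehyde, retinaldehyde dehydrogenases turn that into retinoic acid, and the nuclear receptors RAR and RXR switch genes on when retinoic acid binds, while CYP26 enzymes break retinoic acid down. In fat, retinoids are known to act on the formation of adipocytes and on Ucp1, the uncoupling protein of brown fat.

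One group of cells came from mice with the genotype U-IRX3ov, whose name stands for overexpression of the homeobox gene IRX3, and the other from mice labelled control, both on a C57BL/6 background. The sources used here do not give the construct, its promoter, the species of its IRX3 or the cells in which it is active. Both groups were grown from the stromal vascular fraction of brown adipose tissue, the non-adipocyte cells of a digested fat pad, of mice aged 5 weeks. Differentiation lasted 8 days in both groups, with 2 days of insulin (5 µg/mL), dexamethasone (1 µM), rosiglitazone (1 µM), T3 (1 µM) and IBMX (0.5 mM) and then 6 days of insulin, rosiglitazone and T3. Each group had 3 libraries, and the titles of the U-IRX3ov libraries read KI. The labels do not say whether these came from separate animals or cultures, so p-values measure the spread between these 6 libraries, which may be technical.

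Library totals were 20094799 to 26755870 counts in U-IRX3ov and 25371093 to 26573164 in control. Values below are CPM, the usual count unit relative to library size, here after TMM scaling, unless another unit is named. The cells expressed adipocyte genes in both groups, with Adipoq at 1346 ± 12.3 CPM in U-IRX3ov and 1199 ± 37.0 CPM in control (SD, n = 3 each). Ucp1 stood at 239.5 ± 24.1 CPM in U-IRX3ov and 19.7 ± 1.19 CPM in control. Irx3 itself stood at 6.16 ± 0.23 CPM in U-IRX3ov and 5.11 ± 0.32 CPM in control, a log2 fold change of 0.27 ± 0.13 (SE) that did not pass the threshold (edgeR adjusted p = 0.112). Whether reads of the construct fall under that symbol is not known.

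Across the members the differences ran both ways. Of the 8 members that passed the filter, Rbp4, Retsat and Dhrs3 had all 3 U-IRX3ov libraries above all 3 control libraries. Aldh1a1, Aldh1a3 and Rarg had all 3 below, and Rbp7 and Rdh10 overlapped. Over all 14757 genes that passed the filter, 24.9% had U-IRX3ov entirely above control and 25.9% entirely below, together 50.8%. The log2 fold changes of the 8 members ran from -1.07 for Aldh1a3 to 1.49 for Rbp4, with a median of -0.25. The median over all 14757 genes was -0.0047, with the middle 80% of genes between -0.58 and 0.44, so only Rbp4, Rbp7, Aldh1a1 and Aldh1a3 lay outside that middle range. These are bulk libraries, in which fewer cells of a type and less RNA per cell cannot be told apart.

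**Figure D1:**
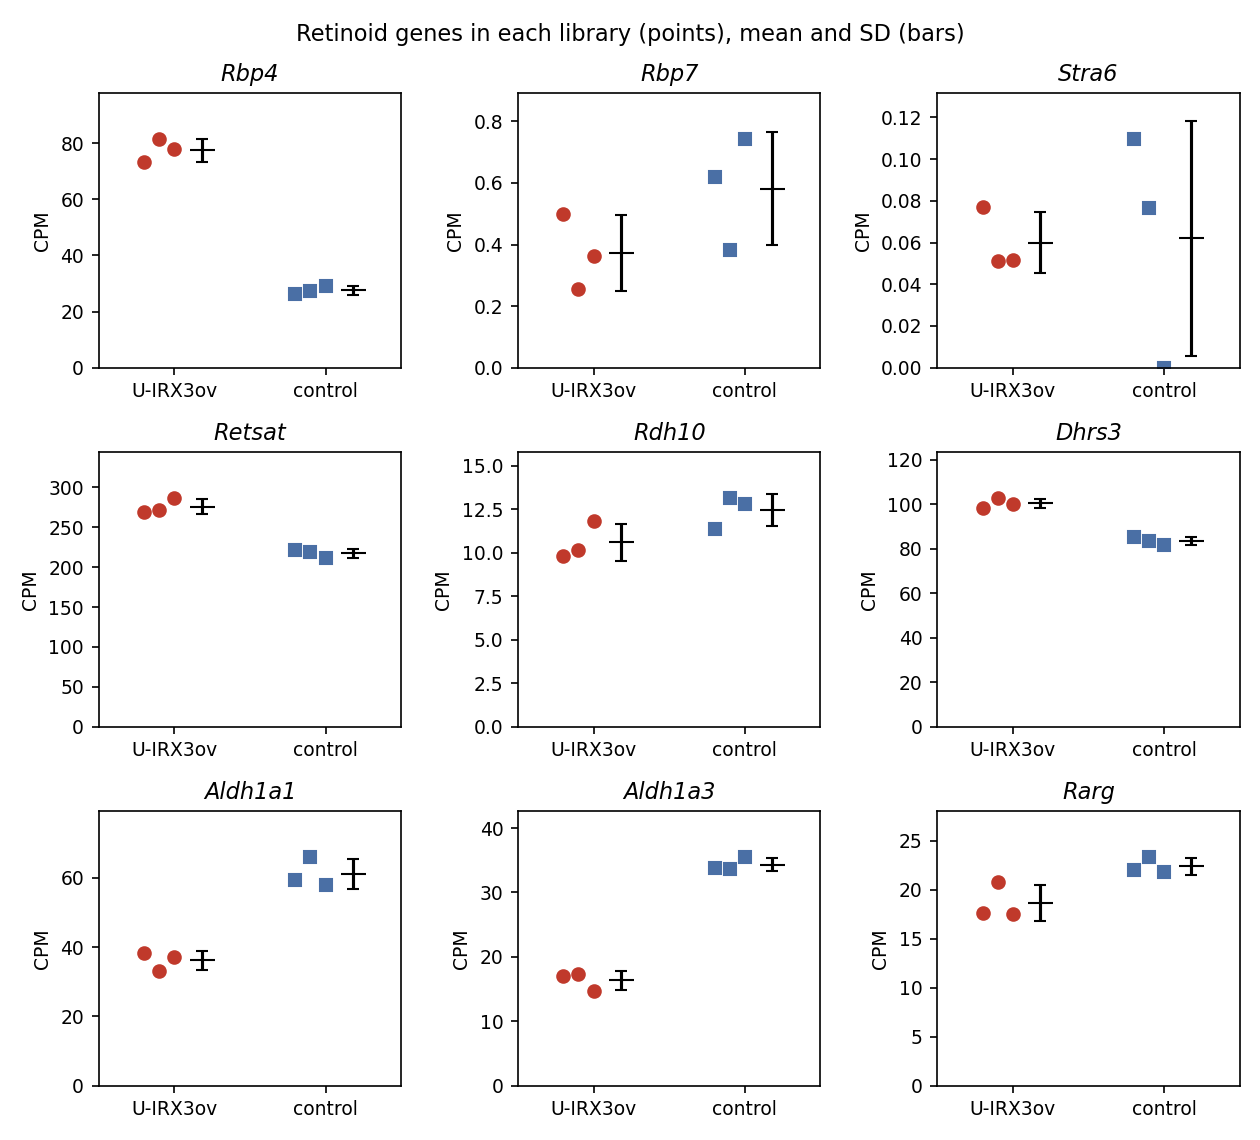
CPM (TMM-scaled) of the 9 genes in each library, 1 panel per gene with its own axis from 0, with circles for U-IRX3ov, squares for control and black bars for the mean and SD of 3 libraries. The groups are apart for Rbp4, Retsat, Dhrs3, Aldh1a1, Aldh1a3 and Rarg, and overlap for Rbp7, Stra6 and Rdh10.

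Among the members the carrier Rbp4 stood out by its log2 fold change. Rbp4, which is secreted by liver and adipocytes and carries retinol in blood, had 73.3, 81.4 and 77.9 CPM in U-IRX3ov libraries, against 26.2, 27.3 and 29.1 CPM in control libraries. Even the lowest U-IRX3ov library was far above the highest control library. The means were 77.5 ± 4.08 CPM in U-IRX3ov and 27.5 ± 1.45 CPM in control (SD, n = 3 each), 2.82-fold higher in U-IRX3ov (log2 fold change 1.49 ± 0.06 SE). The gene spans bases 38116629 to 38125281 of chromosome 19 in mm10 and is read from the minus strand.

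The other retinol handlers at the cell surface and in the cytosol were near the limit of detection. Rbp7, a cellular retinol-binding protein of adipose tissue and endothelium, had 13, 5 and 7 raw counts in U-IRX3ov libraries, against 17, 10 and 20 in control libraries. In CPM the groups overlapped, at 0.373 ± 0.122 in U-IRX3ov and 0.582 ± 0.183 in control (SD, n = 3 each), and the log2 fold change of -0.60 had an SE of 0.46. Summed over 3 libraries this was 25 counts in U-IRX3ov (exact 95% Poisson interval 16.2 to 36.9) and 47 in control (34.5 to 62.5), intervals that cover counting error only. Stra6, the membrane receptor for the Rbp4 and retinol complex, had 2, 1 and 1 counts in U-IRX3ov libraries, against 3, 2 and 0 in control libraries. A count of 0 in the third control library allows up to 3 counts, or 0.115 CPM on the library total without TMM scaling. A difference in Stra6 was not detectable at this depth. Endothelial markers, which are read here because Rbp7 is also an endothelial gene, rose in 4 of 7 tested genes and fell in 0. Over all 14757 genes 20.2% rose and 21.1% fell at an adjusted p under 0.05. The 9 endothelial genes listed summed to 39.6 to 44.7 CPM in U-IRX3ov and 19.7 to 23.3 CPM in control, with Cldn5 at 0 in every library. Pecam1 alone averaged 13.3 ± 0.89 CPM in U-IRX3ov and 5.21 ± 0.95 CPM in control (SD, n = 3 each). Their part in the Rbp7 counts was not tested. Rbp7 lies on chromosome 4 at 149449687 to 149454978 (minus strand) and Stra6 on chromosome 9 at 58063788 to 58153996 (plus strand).

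Retsat had the highest level of the 9 genes, also per length. It encodes retinol saturase, which adds hydrogen to a double bond of retinol and is known to be switched on during adipocyte formation. Retsat had 269.8, 271.4 and 286.4 CPM in U-IRX3ov libraries, against 221.6, 219.5 and 211.3 CPM in control libraries. The groups did not overlap, with means of 275.9 ± 9.19 CPM in U-IRX3ov and 217.5 ± 5.41 CPM in control (SD, n = 3 each; log2 fold change 0.34 ± 0.04 SE). Retsat lies on chromosome 6 at 72598475 to 72608425 (plus strand), where exons of the annotated gene Gm45053 overlap it on the other strand. Whether reads were counted by strand is not stated, so reads of Gm45053 could be included.

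Rdh10 and Dhrs3, the members that turn retinol and retinaldehyde into each other, differed less than Retsat in log2 fold change. Rdh10, a main retinol dehydrogenase of the embryo that makes retinaldehyde, had 9.84, 10.2 and 11.8 CPM in U-IRX3ov libraries, against 11.4, 13.1 and 12.8 CPM in control libraries. The third U-IRX3ov library exceeded the first control library, so the groups overlapped (log2 fold change -0.23 ± 0.10 SE). Dhrs3, which reduces retinaldehyde back to retinol and is itself a known target of retinoic acid, had 98.5, 102.7 and 100.04 CPM in U-IRX3ov libraries, against 85.4, 83.6 and 81.9 CPM in control libraries. Every U-IRX3ov library was above every control library by a margin larger than the spread within groups (log2 fold change 0.26 ± 0.04 SE). Rdh10 and Dhrs3 work as a complex that sets the balance of retinol and retinaldehyde. The ratio of Dhrs3 to Rdh10, each per kilobase of annotated exon, was 14.2, 14.4 and 12.02 in U-IRX3ov libraries and 10.7, 9.04 and 9.09 in control libraries, with no overlap. Rdh10 lies on chromosome 1 at 16105774 to 16133734 (plus strand) and Dhrs3 on chromosome 4 at 144892827 to 144928209 (plus strand).

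Both members that make retinoic acid were lower in U-IRX3ov. Aldh1a1, the retinaldehyde dehydrogenase best known from white fat, had 38.4, 33.1 and 37.2 CPM in U-IRX3ov libraries, against 59.5, 66.0 and 58.003 CPM in control libraries. The highest U-IRX3ov library was well below the lowest control library, and the fold was 0.594 (log2 fold change -0.75 ± 0.06 SE). Aldh1a3, a related enzyme with high activity on retinaldehyde, had 16.997, 17.3 and 14.7 CPM in U-IRX3ov libraries, against 33.8, 33.7 and 35.5 CPM in control libraries. Here too the groups stood clearly apart, with a fold of 0.477 (log2 fold change -1.07 ± 0.07 SE), the lowest of the 8 members. Aldh1a1 lies on chromosome 19 at 20492715 to 20643465 (plus strand) and Aldh1a3 on chromosome 7 at 66390890 to 66427517 (minus strand). Stretches of 50 bases of annotated Aldh1a1 transcripts were shared with the neighbouring paralog Aldh1a7 in 3.06% of cases. The same stretches were 7.49% of those of Aldh1a7, which was far more abundant. Per kilobase of annotated exon, Aldh1a7 averaged 127.0 CPM in U-IRX3ov and 114.4 in control, against 7.34 and 12.4 for Aldh1a1. The part of Aldh1a7 reads in the Aldh1a1 counts was not tested. Aldh1a3 shared 1.15% with transcripts of other genes, and for the other 7 members the share was 0%. How the counting treated reads that match several genes is not given.

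The third enzyme that makes retinoic acid, Aldh1a2, was not a member and was tested. Its list was also made with earlier results of these data known. Aldh1a2 had 2.46, 2.82 and 2.79 CPM in U-IRX3ov libraries, against 6.65, 6.95 and 6.38 CPM in control libraries. It fell in U-IRX3ov, with a log2 fold change of -1.31 ± 0.15 (SE; edgeR adjusted p = 4.83e-08), and all 3 U-IRX3ov libraries were below all 3 control libraries. Per kilobase of annotated exon, the sum of Aldh1a1, Aldh1a2 and Aldh1a3 was 12.5, 11.7 and 11.95 CPM in U-IRX3ov libraries and 22.3, 23.7 and 22.3 CPM in control libraries. On the length of the shortest principal transcript, a choice made after the data were seen, it averaged 23.6 CPM per kilobase in U-IRX3ov and 42.7 in control. Aldh1a1 held 60.8% ± 3.04 of the sum over all annotated exons in U-IRX3ov and 54.4% ± 1.78 in control (SD, n = 3 each). Its share depends on the length used. On the length of the shortest principal transcript, Aldh1a1 made up 17.6 of the 23.6 in U-IRX3ov and 29.8 of the 42.7 in control. The paralog Aldh1a7, which is known to have little activity on retinaldehyde, was far more abundant and rose slightly, at 262.4 ± 6.79 CPM in U-IRX3ov and 236.4 ± 3.47 CPM in control (SD, n = 3 each; log2 fold change 0.15 ± 0.04 SE, edgeR adjusted p = 0.00123). Aldh1b1, a mitochondrial relative, fell to 1.88, 2.05 and 1.91 CPM in U-IRX3ov libraries, against 3.14, 2.18 and 3.60 CPM in control libraries (log2 fold change -0.61 ± 0.22 SE, edgeR adjusted p = 0.0277). Leaving out each library in turn gave adjusted p from 0.00658 to 0.164. The call did not hold without U-IRX3ov library 1 (adjusted p = 0.0811), U-IRX3ov library 3 (0.0684), control library 1 (0.0869) and control library 3 (0.164).

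Markers of other cells of the stromal vascular fraction moved in the same libraries. Beside the counts that follow, 20.2% of all 14757 genes rose and 21.1% fell at an adjusted p under 0.05. Of 11 tested preadipocyte and fibroblast markers 10 fell and 0 rose, and the 12 genes of that list summed to 3134 to 3430 CPM in U-IRX3ov and 4930 to 5025 CPM in control. Pdgfra of preadipocytes averaged 186.6 ± 10.4 CPM in U-IRX3ov and 252.7 ± 11.7 CPM in control (SD, n = 3 each). All 10 macrophage and leukocyte markers fell, with sums of 77.1 to 104 CPM in U-IRX3ov and 236 to 283 CPM in control, and the leukocyte gene Ptprc averaged 3.15 ± 0.46 CPM in U-IRX3ov and 7.94 ± 0.46 CPM in control. Of 8 pericyte and smooth muscle markers 5 fell and 2 rose, with sums of 2879 to 3191 CPM in U-IRX3ov and 4619 to 4852 CPM in control. All 8 tested adipocyte markers rose, with log2 fold changes from 0.15 to 0.66, while Lep had 0 to 4 counts per library. Their sums were 24809.6 to 25852 CPM in U-IRX3ov and 17681 to 18883 CPM in control. Most of each adipocyte sum was Fabp4, at 18682 ± 540 CPM in U-IRX3ov and 12693 ± 604 CPM in control (SD, n = 3 each). Of 10 brown adipocyte markers 8 rose and 2 fell, with sums of 751 to 850.2 CPM in U-IRX3ov and 309.7 to 321 CPM in control. Of the mesothelial markers, which matter because mesothelium is a known site of Aldh1a2, 2 of 3 tested rose. The sums over 6 genes were 23.1 to 28.3 CPM in U-IRX3ov and 17.3 to 19.5 CPM in control. Most of each sum was Krt19, at 23.9 ± 2.37 CPM in U-IRX3ov and 17.5 ± 1.06 CPM in control (SD, n = 3 each). Lrrn4, the other gene that rose, had 13, 14 and 9 counts in U-IRX3ov libraries, against 8, 3 and 3 in control libraries. Msln overlapped between the groups, and Upk3b, Wt1 and Krt8 had at most 7 counts in any library. The part of these cells in the levels of Aldh1a1, Aldh1a2, Aldh1a3 and the other genes here was not tested.

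**Figure D2:**
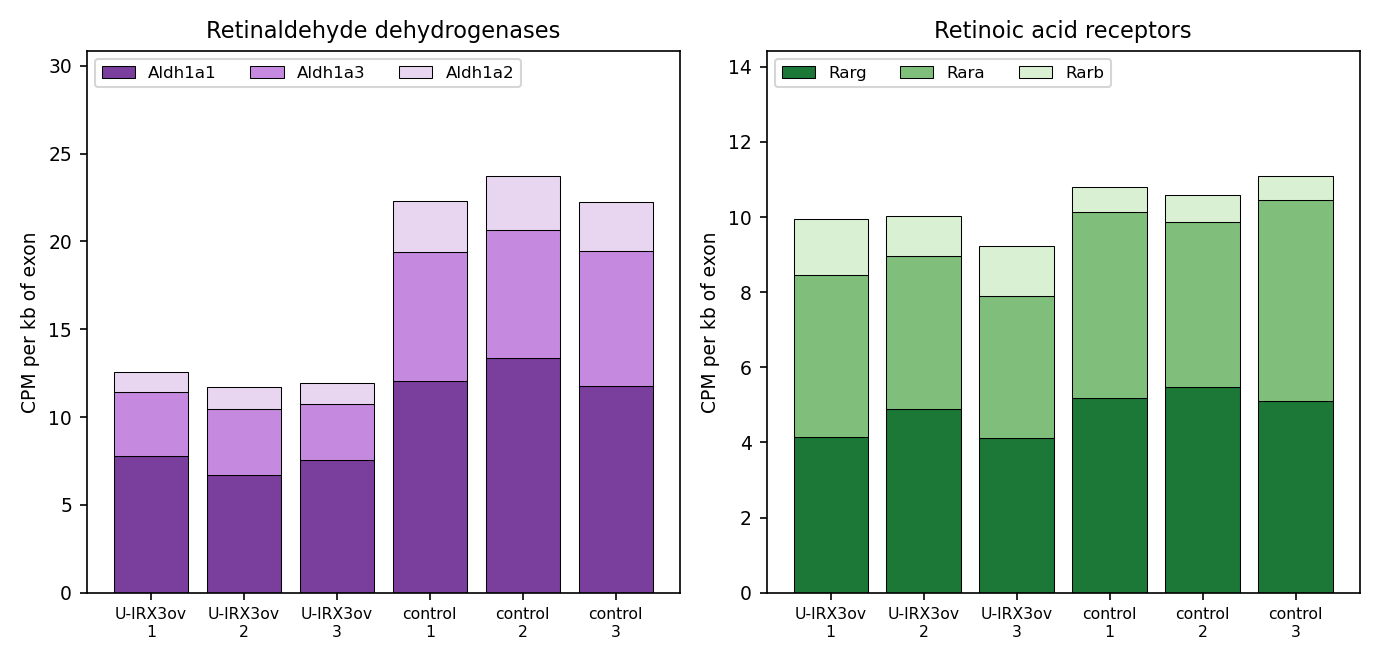
Stacked CPM per kilobase of annotated exon for Aldh1a1, Aldh1a3 and Aldh1a2 (left) and for Rarg, Rara and Rarb (right), 1 bar per library with the U-IRX3ov libraries at the left. The enzyme sums are 11.7 to 12.5 in U-IRX3ov and 22.3 to 23.7 in control, and the receptor sums are 9.24 to 10.02 in U-IRX3ov and 10.6 to 11.1 in control.

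The receptor Rarg was slightly lower in U-IRX3ov. Rarg, one of the nuclear receptors for retinoic acid, had 17.6, 20.8 and 17.6 CPM in U-IRX3ov libraries, against 22.1, 23.3 and 21.8 CPM in control libraries. The groups did not overlap, but the second U-IRX3ov library came close to the lowest control library (log2 fold change -0.27 ± 0.08 SE). Rarg lies on chromosome 15 at 102234938 to 102257517 (minus strand).

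Among the receptors outside the members, 2 of 5 tested rose and 2 fell, beside 20.2% of all 14757 genes that rose and 21.1% that fell. Rarb, a receptor gene that is switched on by retinoic acid in many cells, had 7.84, 5.59 and 7.02 CPM in U-IRX3ov libraries, against 3.43, 3.74 and 3.45 CPM in control libraries. It rose with a log2 fold change of 0.95 ± 0.15 (SE; edgeR adjusted p = 8.93e-06), higher in 3 of 3 U-IRX3ov libraries than in any control library. Exons of Top2b and Gm48162 overlap Rarb on the other strand. Rara, the most widely expressed retinoic acid receptor, fell to 17.7 ± 1.16 CPM in U-IRX3ov, against 21.4 ± 2.06 CPM in control (SD, n = 3 each; log2 fold change -0.27 ± 0.08 SE, edgeR adjusted p = 0.0104). Retinoid X receptors are the partners of RAR, PPAR and the thyroid hormone receptors on DNA. Rxra, the abundant one, fell to 109.98, 109.5 and 104.02 CPM in U-IRX3ov libraries, against 114.8, 118.7 and 118.9 CPM in control libraries (log2 fold change -0.12 ± 0.04 SE, edgeR adjusted p = 0.0149), a difference that is small but without overlap. Rxrg, a form known from muscle and fat at lower levels, rose to 6.999, 7.34 and 7.28 CPM in U-IRX3ov libraries, against 4.86, 5.42 and 5.08 CPM in control libraries (log2 fold change 0.49 ± 0.13 SE, edgeR adjusted p = 0.00293). Without U-IRX3ov library 3 (adjusted p = 0.0728) or control library 3 (0.0691) the Rara call was lost. The Rxra call was lost without U-IRX3ov library 3 (0.102) and without control library 2 (0.0521). Ppard had 15, 4 and 3 counts in U-IRX3ov libraries, against 14, 18 and 9 in control libraries. It did not pass (log2 fold change -0.61 ± 0.51 SE, edgeR adjusted p = 0.367), and at such counts a difference could be missed. Rxrb, at 0 to 9 counts per library, was too low for the test.

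As a share of the summed RAR level per kilobase, Rarb held 13.3% ± 2.39 in U-IRX3ov and 6.22% ± 0.44 in control (SD, n = 3 each). Rarg held 45.0% ± 3.63 in U-IRX3ov and 48.6% ± 2.91 in control, and Rara held 41.7% ± 1.54 in U-IRX3ov and 45.2% ± 3.34 in control. The shares of Rarg and of Rara overlapped between the groups, and that of Rarb did not. Which of Rarg and Rara held more depends on the length used. On the length of the shortest principal transcript, Rara came to 7.44 CPM per kilobase in U-IRX3ov and 8.98 in control. On that length Rarg came to 6.32 in U-IRX3ov and 7.58 in control, and Rarb to 2.19 in U-IRX3ov and 1.14 in control.

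The start region of Rarb holds the textbook element through which retinoic acid acts, and the letters are shown because Rarb is the receptor with the largest log2 fold change. The stretch is chr14:16575506-16575535 of GRCm38.p6 (the assembly of mm10), minus strand, from RefSeq, and spans bases 59 to 30 before the RefSeq start. All 250 bases of that window lie in exons of the GENCODE annotation, so this stretch is exonic there. Capitals mark a pair of receptor core motifs in the same direction, with 5 bases between them.
Rarb: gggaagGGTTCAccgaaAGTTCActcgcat
The cores searched, on both strands, were AGGTCA and AGTTCA and the versions GGGTCA and GGTTCA. Pairs of any of them in the same direction, 5 bases apart, occurred in 0.0883% of 32851 RefSeq windows of 250 bases before annotated starts. Windows of 7 members were available, 15 in all, and 0 of them held such a pair or one with a spacing of 1 or 2 bases. A single core occurred in 4 of the 15, against 38.6% of all windows. The motif TATAAA occurred in 2 of the 15, against 12.4% of all windows. A match describes letters only and is not evidence of binding, and motifs were not looked for outside these windows. Windows of Rdh10 and Aldh1a3 were not used here.

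The windows of Rbp4 and Dhrs3, which were higher in U-IRX3ov, and of Aldh1a1 and Rarg, which were lower, are given for comparison, trimmed to the bases outside annotated exons. They are chr19:38124829-38124954 (Rbp4, minus strand), chr4:144892577-144892826 (Dhrs3, plus strand), chr19:20601718-20601960 (Aldh1a1, plus strand) and chr15:102257523-102257772 (Rarg, minus strand) of GRCm38.p6 from RefSeq. Each is written 5′ to 3′ on the strand of its gene. Capitals mark TATAAA and the single cores.
Rbp4: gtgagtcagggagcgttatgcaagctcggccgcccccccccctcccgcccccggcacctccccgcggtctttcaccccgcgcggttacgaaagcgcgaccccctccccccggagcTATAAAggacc
Dhrs3: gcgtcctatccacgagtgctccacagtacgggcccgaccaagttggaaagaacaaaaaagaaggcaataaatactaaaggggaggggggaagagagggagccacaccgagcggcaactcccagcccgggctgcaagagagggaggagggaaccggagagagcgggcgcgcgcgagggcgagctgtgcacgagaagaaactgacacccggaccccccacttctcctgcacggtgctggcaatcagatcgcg
Aldh1a1: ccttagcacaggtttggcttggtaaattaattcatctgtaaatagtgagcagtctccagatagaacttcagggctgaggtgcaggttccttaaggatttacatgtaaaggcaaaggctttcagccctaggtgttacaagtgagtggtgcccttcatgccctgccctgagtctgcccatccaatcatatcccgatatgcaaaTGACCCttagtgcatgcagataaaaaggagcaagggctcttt
Rarg: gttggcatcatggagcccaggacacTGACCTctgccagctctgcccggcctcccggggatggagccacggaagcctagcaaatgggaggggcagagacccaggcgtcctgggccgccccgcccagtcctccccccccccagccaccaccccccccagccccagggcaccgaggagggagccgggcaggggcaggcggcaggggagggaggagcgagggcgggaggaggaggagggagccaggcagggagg
Rbp4 holds TATAAA beginning 28 bases before its annotated start at 38124811. Aldh1a1 holds TGACCC, the reverse complement of GGGTCA, 49 bases before its start at 20601968, and Rarg holds TGACCT, the reverse complement of AGGTCA, 225 bases before its start at 102257522. Dhrs3 has neither motif in this window. All 4 genes have other annotated starts, and the counts do not tell which start was used. The window at the other start of Rbp4, 38125321, holds TGACCC at 53 bases before it.

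Levels can be compared between genes only per length. Per kilobase of all annotated exons, the order in U-IRX3ov was Retsat at 78.0 ± 2.60 CPM, Rbp4 at 57.7 ± 3.04, Dhrs3 at 34.3 ± 0.73, Aldh1a1 at 7.34 ± 0.56, Rarg at 4.38 ± 0.44, Aldh1a3 at 3.54 ± 0.31, Rdh10 at 2.55 ± 0.26 and Rbp7 at 0.519 ± 0.170 (SD, n = 3). In control it was Retsat at 61.5 ± 1.53 CPM, Dhrs3 at 28.6 ± 0.61, Rbp4 at 20.5 ± 1.08, Aldh1a1 at 12.4 ± 0.86, Aldh1a3 at 7.43 ± 0.22, Rarg at 5.26 ± 0.20, Rdh10 at 2.99 ± 0.22 and Rbp7 at 0.810 ± 0.255 (SD, n = 3). Within each group neighbouring genes in this order did not overlap in any library. Rbp4 and Dhrs3 exchanged places between the groups, and so did Rarg and Aldh1a3. On the length of the shortest principal transcript, Aldh1a1 came to 17.6 CPM per kilobase in U-IRX3ov and 29.8 in control, next to 29.4 for Rbp4 in control. The place of Aldh1a1 in control therefore depends on the length used.

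**Figure D3:**
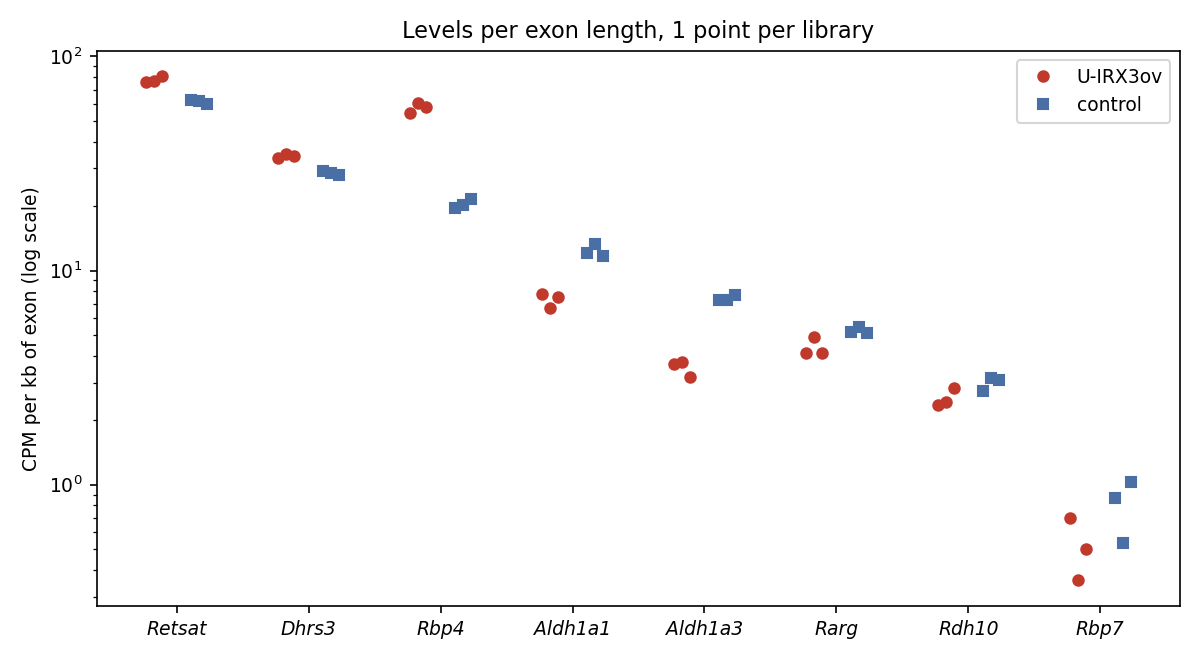
Level of 8 members in CPM per kilobase of annotated exon on a log axis, 1 point per library, with circles for U-IRX3ov at the left of each gene and squares for control. Genes run from the highest to the lowest control mean. Rbp4 lies above Dhrs3 in U-IRX3ov and below it in control.

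Of the wider retinoid pathway, 16 of 43 tested genes rose and 8 fell in U-IRX3ov. These are 37.2% and 18.6%, beside 20.2% of all 14757 genes that rose and 21.1% that fell at an adjusted p under 0.05 (41.3% in either direction). The median log2 fold change of the 43 was 0.14, beside -0.0047 for all genes. The list held 71 symbols, of which 68 had a row, and 25 of those were too low to test. Among these were Lrat, the enzyme that stores retinol as esters in liver, and Cyp26a1, both with 0 counts in every library, and Crabp2, a carrier of retinoic acid to its receptors, with 2 to 11 counts per library. Without U-IRX3ov library 3 the number that fell was 5.

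Genes of retinoid binding and uptake moved in both directions. Lrp2, an endocytic receptor that takes up Rbp4 in the kidney, fell to 3.20 ± 0.47 CPM in U-IRX3ov, against 8.19 ± 0.34 CPM in control (SD, n = 3 each; log2 fold change -1.34 ± 0.14 SE, edgeR adjusted p = 1.22e-08). Fabp5, a fatty acid-binding protein that can also carry retinoic acid, rose to 806.8 ± 14.9 CPM in U-IRX3ov, against 564.6 ± 47.4 CPM in control (SD, n = 3 each; log2 fold change 0.51 ± 0.05 SE, edgeR adjusted p = 8.16e-08). Crabp1, a cytosolic retinoic acid-binding protein, had 1.62, 0.565 and 0.516 CPM in U-IRX3ov libraries, against 0.329, 0.535 and 0.520 CPM in control libraries, and did not pass (edgeR adjusted p = 0.0688). Its higher mean rested on the first U-IRX3ov library, and without it the log2 fold change was 0.23. In the fits without 1 library its adjusted p ran from 0.0351 to 0.773, and it passed without U-IRX3ov library 2 (0.0431) and without U-IRX3ov library 3 (0.0351).

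Of the oxidoreductases that act on retinol and retinaldehyde, 6 of 11 tested rose (54.5%) and 0 fell, beside 20.2% and 21.1% of all genes. Adh1, a cytosolic alcohol dehydrogenase that oxidises retinol, led the 6 in log2 fold change, with 85.4, 92.4 and 96.6 CPM in U-IRX3ov libraries, against 56.7, 51.5 and 48.0 CPM in control libraries (0.81 ± 0.06 SE, edgeR adjusted p = 1.21e-10). Rdh13 of mitochondria rose by 0.51 ± 0.05 on the log2 scale, Dhrs4 of peroxisomes by 0.39 ± 0.05, Dhrs9 by 0.34 ± 0.07, Dhrs7 by 0.27 ± 0.05 and Adh5, better known for formaldehyde, by 0.22 ± 0.05 (SE; edgeR adjusted p from 3.10e-09 for Rdh13 to 4.38e-04 for Adh5). Exons of Gm16559 overlap Adh1 on the other strand, and exons of Gm24605 overlap Rdh13 on the same strand. Adh7, an alcohol dehydrogenase of the stomach and other epithelia, had 1.73, 1.18 and 1.29 CPM in U-IRX3ov libraries, against 1.90, 2.71 and 1.93 CPM in control libraries. Its groups did not overlap, but it did not pass (log2 fold change -0.62 ± 0.26 SE, edgeR adjusted p = 0.0549). It was called lower under upper-quartile scaling, under a filter of 1 CPM in 3 libraries and without U-IRX3ov library 1. In the list of retinyl ester and carotenoid enzymes 2 of 7 tested rose (28.6%) and 0 fell, beside the same 20.2% and 21.1%. Dgat1, a triglyceride enzyme that can also esterify retinol, rose to 293.8 ± 2.999 CPM in U-IRX3ov, against 220.1 ± 3.71 CPM in control (SD, n = 3 each; log2 fold change 0.42 ± 0.04 SE, edgeR adjusted p = 1.45e-10). Ces1d, a carboxylesterase, rose to 132.9 ± 4.48 CPM in U-IRX3ov, against 88.1 ± 7.001 CPM in control (log2 fold change 0.59 ± 0.05 SE, edgeR adjusted p = 5.23e-10). In the same libraries all 8 tested adipocyte markers rose, with a median log2 fold change of 0.46.

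Breakdown of retinoic acid rested on 1 measured gene. Cyp26b1 had 43.0, 40.9 and 41.4 CPM in U-IRX3ov libraries, against 43.0, 47.3 and 41.2 CPM in control libraries. The groups overlapped and the gene did not pass (log2 fold change -0.07 ± 0.06 SE, edgeR adjusted p = 0.399).

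Of genes known from other cells to respond to retinoic acid, 4 of 11 tested rose (36.4%) and 2 fell (18.2%). Over all 14757 genes 20.2% rose and 21.1% fell. The median log2 fold change of the 11 was -0.02. Rarb and Dhrs3, also described above as responding to retinoic acid, stood in other lists and are not counted here. Pck1, an enzyme of glucose and glycerol synthesis, had 36.6, 41.6 and 36.3 CPM in U-IRX3ov libraries, against 13.6, 15.2 and 14.4 CPM in control libraries (log2 fold change 1.41 ± 0.07 SE, edgeR adjusted p = 7.08e-15). Rarres2, the precursor of the adipokine chemerin, had 71.1, 74.3 and 74.5 CPM in U-IRX3ov libraries, against 39.3, 36.7 and 40.005 CPM in control libraries (log2 fold change 0.92 ± 0.05 SE, edgeR adjusted p = 6.03e-14). Both genes had their groups far apart. The transglutaminase Tgm2 (log2 fold change 0.33 ± 0.04 SE) and the corepressor Nrip1 (0.12 ± 0.04) rose by less. Rarres1, a gene first found as induced by a retinoid in skin, fell to 6.17 ± 0.52 CPM in U-IRX3ov, against 9.28 ± 0.61 CPM in control (SD, n = 3 each; log2 fold change -0.60 ± 0.12 SE, edgeR adjusted p = 2.09e-04). Nr2f2, an orphan nuclear receptor, fell as well (log2 fold change -0.22 ± 0.05 SE, edgeR adjusted p = 5.25e-04). Nrip1 (edgeR adjusted p = 0.0212) lost its call without U-IRX3ov library 2 (0.128), U-IRX3ov library 3 (0.0677) and control library 3 (0.106). Rarres2, Tgm2 and Nr2f2 overlap exons of annotated genes on the other strand.

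**Figure D4:**
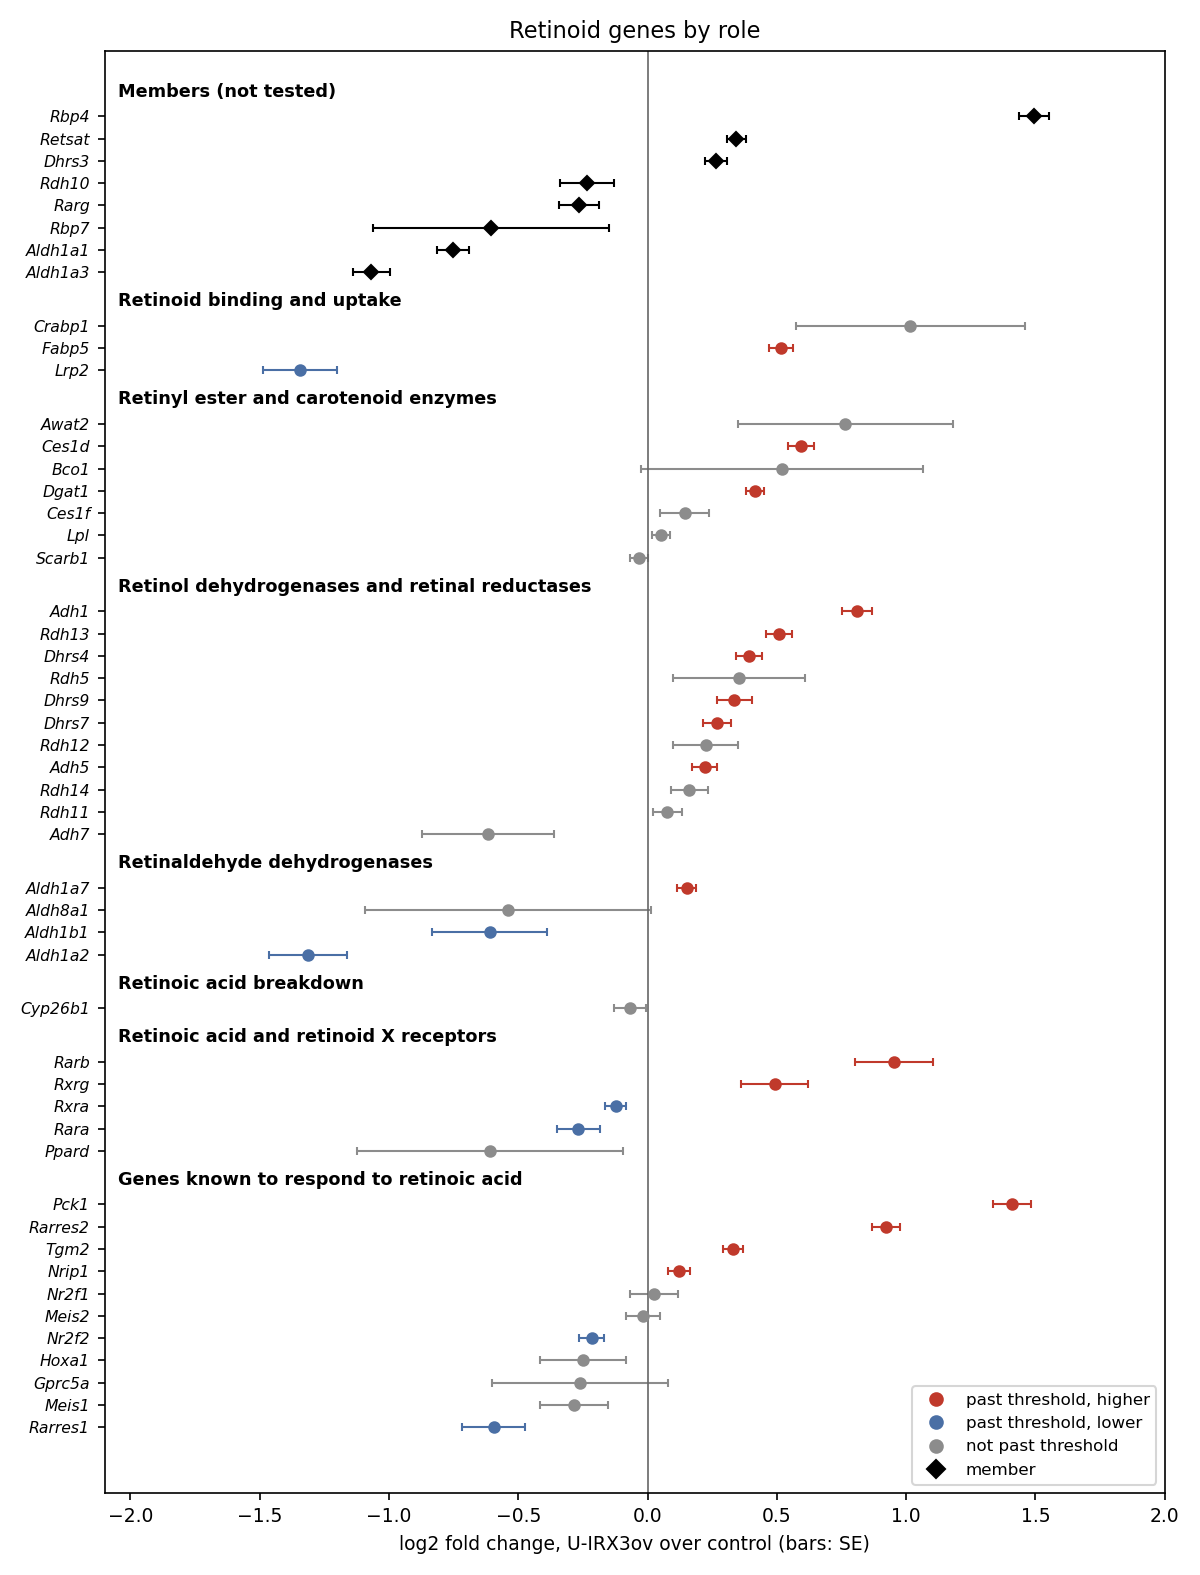
Log2 fold change of U-IRX3ov over control with its SE, for the 8 members that passed the filter (diamonds) and other tested retinoid genes grouped by role (circles, red where the gene rose, blue where it fell, grey where it did not pass an adjusted p of 0.05). Of the oxidoreductases 6 of 11 rose and 0 fell, and among the retinaldehyde dehydrogenases Aldh1a2 and Aldh1b1 fell.

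The genes closest to Rbp4 in log2 CPM over the 6 libraries, each centred on its own mean, were Pck1, Ppara and Selenbp1, with root mean square distances of 0.077, 0.082 and 0.090. The genes closest to Aldh1a3 were Nefm, Cygb and Igsf9b, with distances of 0.044, 0.055 and 0.060. With 2 groups of 3 these distances mainly reflect a similar difference between the groups. Ppara had a log2 fold change of 1.44 and Selenbp1 one of 1.37, beside 1.49 for Rbp4. Nefm had one of -1.10, Cygb one of -1.08 and Igsf9b one of -1.05, beside -1.07 for Aldh1a3.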

How the data were processed

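For 6 RNA-seq libraries the authors deposited gene-level counts, whole numbers with no normalization, in 1 table. The submitters' processing notes name HISAT2 2.0.4 and mm10. No source used here gives the program, annotation or strand setting of the counting, or what the word combined in the library descriptions refers to. The 9 members and the other gene lists were chosen with earlier results of these data known. Named genes were the members, every other listed pathway gene past the threshold, a core set whatever their values, and the 3 genes nearest to the members with the highest and lowest fold change. Adh7, Ppard, Meis1, Rdh12, Stra6l, Lep, Cldn5, Upk3b, Wt1, Krt8, Krt19, Lrrn4 and Msln were named after their values were seen. The result of 1 listed gene is not reported here.

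Genes were filtered with filterByExpr, which kept 14757 of 24947 genes with a count, scaled by TMM and tested with edgeR 4.0.16 (robust quasi-likelihood F test, group as the only term, Benjamini-Hochberg adjustment over all 14757 genes, threshold 0.05). The SE was taken as |log2 fold change| over the root of the F statistic. The biological coefficient of variation was 5.12%. Chi-square per degree of freedom between replicates was 2.99 to 5.20, above counting noise, so none was merged. Lengths, positions and overlaps came from GENCODE M21 (GRCm38). Alternatives were DESeq2 1.42.0, limma-voom (limma 3.58.1), other scalings and filters, a replicate block and leaving out each library.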

Additional observations from a re-analysis of the deposited data

How the results depend on the processing

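Other scalings, filters, tools, the replicate block and fits without 1 library gave 103 values for the members. In none did a member change the sign of its log2 fold change. None moved by more than the SD between replicates, but a fit without 1 of 3 libraries can hardly move further than that. That bound was thus nearly met in advance, and the ranges are given instead. Rbp4 ran from 1.46 to 1.53, Aldh1a3 from -1.11 to -1.0003, Aldh1a1 from -0.80 to -0.69, Rarg from -0.35 to -0.22 and Rbp7 from -0.90 to -0.40. Rbp7 had no value under a filter of 1 CPM in 3 libraries. Stra6 is not among these values, because it did not pass the main filter on low counts. Without 1 library, the number of other retinoid genes that rose ran from 15 to 17 and the number that fell from 5 to 9, the 5 being without U-IRX3ov library 3. Over all genes these fits gave 2610 to 2788 higher and 2788 to 2913 lower calls. The only call of a named gene lost under another tool, scaling or filter was Aldh1b1 under DESeq2 (adjusted p = 0.0641); the cause was not tested. Calls gained among the other retinoid genes were Adh7 in the settings named with it, Stra6l with no filter on low counts, Crabp1 and Meis1 without U-IRX3ov library 2, Crabp1 without U-IRX3ov library 3 and Rdh12 without control library 1. Scalings moved the median of all genes by at most 0.016 on the log2 scale. The replicate numbers are shared between groups with no statement that they mark a common animal or day. Deviations of same-numbered libraries correlated at 0.026, 0.075 and 0.050 over genes, each library correlating best with its own number, too weakly to treat them as pairs. With the replicate block 3014 genes rose and 3159 fell over all genes, and 16 and 8 among the other retinoid genes, with the same 24 genes called. Depth limits Rbp7 and Stra6 most.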
